A study of Sus scrofa with 20 samples.

Results

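The 59 genes described here carry symbols of nuclear subunits of the mitochondrial oxidative phosphorylation complexes, and were measured on a pig expression array. Probe sets without a single symbol were left out, so the set need not hold every such subunit on the array. The genes were chosen by gene symbol from the platform's probe table, as the numbered NDUFA, NDUFB, NDUFC, NDUFS and NDUFV series, SDHA to SDHD, and the UQCR, COX4 to COX8 and ATP5 families, and each gene was represented by the probe set with the highest mean over 20 arrays. They make up 59 of the 6765 genes with a single symbol on the array: 32 of complex I, 4 of complex II, 2 of complex III, 7 of complex IV and 14 of complex V. The symbols place NDUFA4 with complex I, although its protein is now known as a subunit of complex IV. ATP5S matched by name but encodes a coupling factor rather than a subunit of the ATP synthase.

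The study measured gene expression in hearts of female pigs, asking by its title whether preconditioning after chronic ischemia differs from the classical second window of protection. Each of 4 groups had 5 pigs and 5 arrays, and the labels name no breed, age or region of the heart. Control pigs had a sham operation. SWOP, the second window, followed 2 cycles of 10 min coronary artery occlusion and reperfusion, with 24 h of reperfusion before sampling. RCO gave the same 2 cycles 6 times at intervals of 12 h. RCS gave 90 min of low-flow ischemia by coronary stenosis 6 times at intervals of 12 h. The labels give no sampling time after the last episode of RCO or RCS.

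Complexes I and II pass electrons from NADH and succinate to ubiquinone, complex III passes them on to cytochrome c, and complex IV, cytochrome c oxidase, passes them to oxygen. Complexes I, III and IV pump protons across the inner mitochondrial membrane, and complex V, the ATP synthase, makes ATP from the returning flow. The heart depends on this pathway for most of its ATP, and several subunits have a heart and muscle isoform beside one found in most tissues.

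The 59 genes were bright on these arrays. Their mean log2 signals in the control group ran from 7.86 for NDUFV3 to 14.17 for ATP5A1, with a median of 12.51 against 6.80 over all probe sets, and 58 of 59 lay among the 8001 brightest probe sets. The replicate spread was small in control hearts (median SD of the 59 genes 0.0769, n = 5) and in SWOP (0.0891), and larger in RCO (0.295) and RCS (0.241). Over all probe sets the median SD was 0.143, 0.126, 0.218 and 0.154 in the same order.

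The RCO arrays stood apart from one another. Set against the control mean, the median over the 59 genes was 0.23, -0.40, -0.26, 0.07 and 0.06 (log2) in RCO replicates 1 to 5. Replicate 2 was the lowest RCO array for 49 of 59 genes, replicates 2 and 3 were the lowest pair for 53, and replicate 1 was the highest for 40. The same 2 low arrays had the highest macrophage marker medians of the group, 2.23 and 1.55 above control against 0.30 to 0.46 in the other three. Their fibroblast marker medians (1.35 and 1.66, against -0.12 to 0.20) and smooth muscle marker medians (1.62 and 1.44, against -0.24 to 0.26) were also the highest of the group. The 3′ minus 5′ log2 signal of the actin control probes was lowest in the same arrays (0.682 and 0.747, against 1.047 to 1.31). The cardiomyocyte marker medians were -0.28, -0.28, -0.29, -0.06 and -0.09 in RCO replicates 1 to 5, so replicate 1 was as low there as replicate 2. The part of these measures in the lower subunit signals of replicates 2 and 3 was not tested. RCO replicate 1 and SWOP replicate 1 had the highest spike-in control signals, 11.05 and 10.87. Counts of genes that passed and medians over the 59 genes that rest on the RCO group are given with and without replicates 2 and 3. Since the subunit signals are themselves low on these arrays, leaving them out raises the RCO values by construction. Of the cardiomyocyte genes that check the tissue label, MYH7 averaged 14.87 and TNNI3 14.78 in control hearts, near the top of the scale (15.18).

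In RCS hearts, transcripts of all 5 complexes were lower than in control hearts. By limma, with adjustment over all 23999 probe sets, 44 of the 59 genes fell, 1 rose and 14 did not pass an adjusted p of 0.05. Over all probe sets 28.2% fell and 19.3% rose in this comparison, and 21.7% fell and 30.9% rose among the 8001 brightest. The median difference over the 59 genes was -0.40 on the log2 scale, with a range from -1.46 to 0.83, against 0.00 over the 6765 genes and -0.08 over all probe sets, and all 5 RCS arrays lay below all 5 control arrays for 35 genes, against 17.8% of all probe sets, and above them for 1, against 14.8%. The array medians of the 59 genes were -0.16, -0.54, -0.66, -0.41 and -0.21 in RCS replicates 1 to 5, and -0.06 to 0.05 in controls. RCS replicates 1 and 5 were thus nearest to control and replicate 3 furthest, and no RCS array reached the control range.

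**Figure D1:**
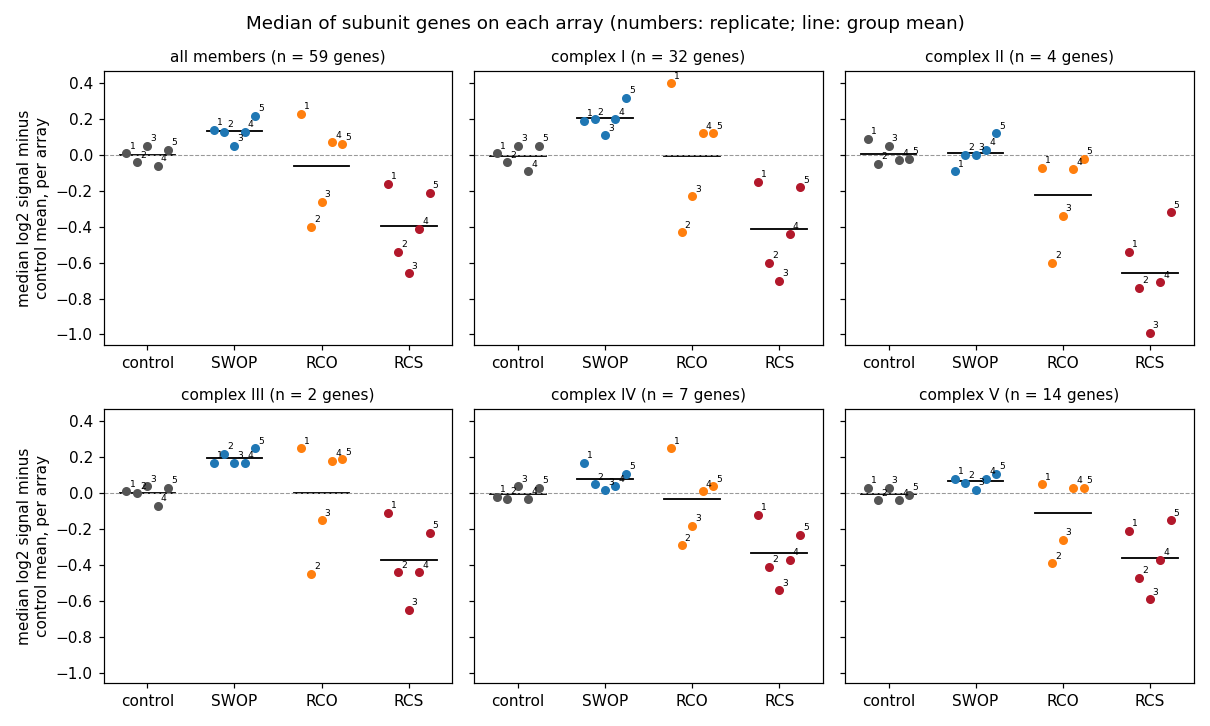
Median log2 signal of the subunit genes on each of the 20 arrays, less the control mean of each gene, for all 59 genes and for each complex; points are arrays numbered by replicate, and lines are group means. RCS arrays lie below the control arrays in every panel, SWOP arrays lie at 0.11 to 0.32 for complex I, and RCO arrays run from -0.43 to 0.40 for complex I.

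Complex I is built around core subunits, some of which carry the flavin and the iron-sulfur clusters, and 5 of the nuclear-encoded core were measured. All 5 fell in RCS, with a median difference of -0.78. NDUFV1, the NADH-binding flavoprotein, read 12.01, 11.91, 12.06, 12.06 and 11.95 in control replicates 1 to 5 and 11.33, 10.65, 10.68, 10.89 and 11.24 in RCS. Every RCS array was lower than every control array, and the fall was 2.06-fold (log2 difference -1.04 ± 0.144 SE, limma adjusted p = 1.9e-05). NDUFS7, which carries the last iron-sulfur cluster before ubiquinone, read 12.55, 12.49, 12.52, 12.54 and 12.61 in control and 11.86, 11.20, 11.10, 11.55 and 11.82 in RCS. The groups again did not overlap, and the fall was 2.05-fold (-1.04 ± 0.146, limma adjusted p = 2.3e-05). NDUFS1, the largest subunit of the electron-input arm, fell by 0.78, NDUFV2 by 0.54 and NDUFS3 by 0.49. The other NDUFV2 probe sets, much dimmer (mean log2 signals 7.11 and 6.32 against 12.32), did not pass (-0.11 and -0.16).

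The accessory subunits of complex I, which surround and stabilise the core, moved less evenly. Of 27, 16 fell in RCS and 11 did not pass, with a median of -0.41. NDUFA9, which sits close to the ubiquinone site, read 12.85, 12.64, 12.77, 12.60 and 12.71 in control and 12.02, 11.85, 11.41, 11.85 and 12.33 in RCS, a fall of 1.77-fold (-0.82 ± 0.137 SE, limma adjusted p = 0.000109). NDUFA10 fell by 0.70, NDUFA3 by 0.66 and NDUFB11 by 0.56. The other 12 that fell were NDUFA1, NDUFA4, NDUFA8, NDUFA11, NDUFA12, NDUFA13, NDUFB1, NDUFB2, NDUFB7, NDUFB8, NDUFS6 and NDUFV3, with differences from -0.54 (NDUFA8) to -0.33 (NDUFB8). At the other end stood NDUFC1 (0.09, 95% interval -0.28 to 0.46), NDUFA2 (0.01, -0.28 to 0.30), NDUFC2 (-0.04, -0.27 to 0.20), NDUFB5 (-0.05, -0.34 to 0.25), NDUFB9 (-0.05, -0.32 to 0.21) and NDUFS5 (-0.07, -0.29 to 0.15). None of these passed, and each interval excludes a decrease as large as that of NDUFV1. The other 5 accessory genes that did not pass, NDUFA5, NDUFA7, NDUFB3, NDUFB4 and NDUFB10, had differences of -0.45 to -0.19. A second NDUFB3 probe set of like brightness (11.75 against 12.05) did pass, with a fall of 0.34 (limma adjusted p = 0.0238). By series, 9 of 12 NDUFA genes fell (median -0.45) and 5 of 10 NDUFB genes (median -0.31), the latter being subunits of the membrane arm. Whether the core differs from the accessory subunits was not tested, since genes are not replicates.

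**Figure D2:**
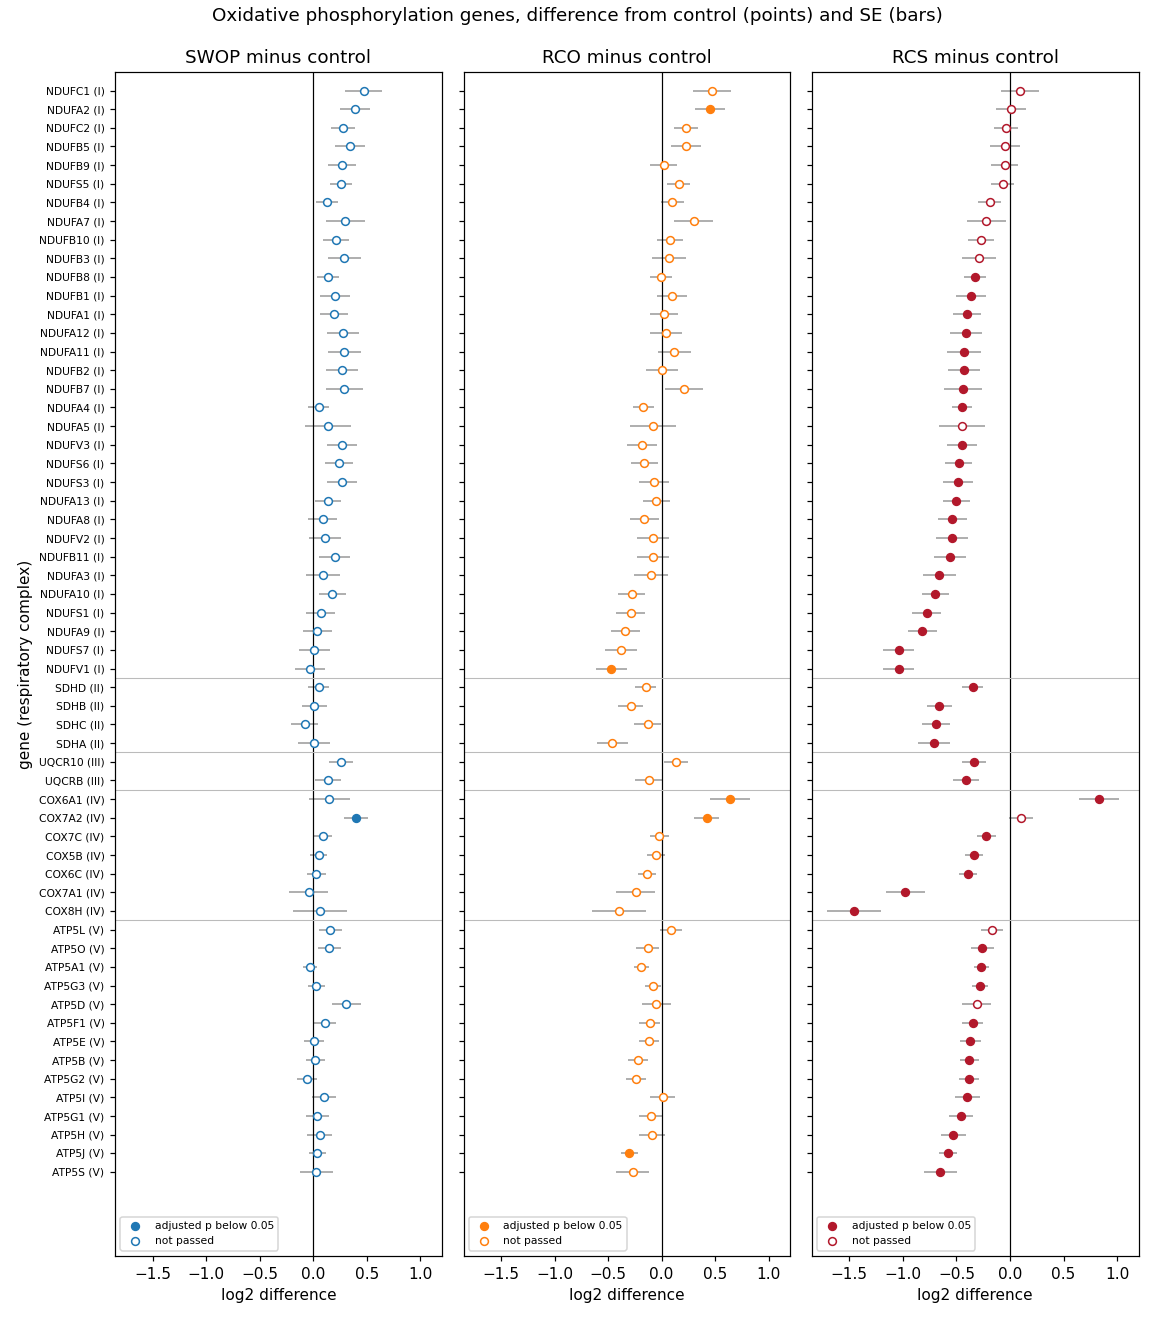
Difference from control on the log2 scale (points) with its standard error (bars) for each of the 59 genes in SWOP, RCO and RCS, ordered within each complex by the RCS difference; filled points passed a limma adjusted p of 0.05. In RCS 45 points are filled and all but COX6A1 of these lie left of 0, in RCO 5 are filled, and in SWOP COX7A2 alone is filled.

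All 4 genes of complex II, succinate dehydrogenase, fell in RCS, with a median of -0.68. SDHA, the flavoprotein that oxidises succinate, read 12.71, 12.71, 12.87, 12.77 and 12.75 in control and 12.20, 11.83, 11.76, 12.05 and 12.41 in RCS. No RCS array reached the lowest control array, and the fall was 1.64-fold (-0.71 ± 0.148 SE, limma adjusted p = 0.000772). The membrane anchor SDHC fell by 0.69, the iron-sulfur subunit SDHB by 0.66 and the second anchor SDHD by 0.35, in each case without overlap of the arrays. A dimmer second probe set of SDHB (mean log2 signal 8.37 against 13.11) ran the opposite way and rose by 0.47 (limma adjusted p = 0.00116). The SDHB call therefore depends on which probe set stands for the gene. A second SDHA probe set of like brightness (12.23) fell by 0.74.

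Complex III was represented only by the small subunits UQCR10 and UQCRB. UQCRB read 13.14, 13.17, 13.12, 13.07 and 13.13 in control and 12.98, 12.74, 12.35, 12.60 and 12.92 in RCS, without overlap, and fell by 0.41 (SE 0.124, limma adjusted p = 0.0115). UQCR10 fell by 0.34, with RCS replicate 1 (12.73) inside the control range of 12.72 to 12.89.

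Complex IV held both extremes of the whole set in RCS. COX8H, the heart isoform of subunit 8, read 13.26, 12.88, 13.02, 13.07 and 12.94 in control and 12.47, 11.12, 10.76, 11.38 and 12.12 in RCS. RCS replicate 3 was lowest and replicate 1 highest, the groups did not overlap, and the fall was 2.76-fold (-1.46 ± 0.252 SE, limma adjusted p = 0.000151). COX7A1, the heart and muscle isoform of subunit 7A, read 13.49, 13.51, 13.50, 13.50 and 13.56 in control and 13.19, 12.19, 11.91, 12.48 and 12.88 in RCS, a fall of 1.98-fold (-0.98 ± 0.182, limma adjusted p = 0.00029). Its RCS arrays kept the order seen for COX8H. COX6A1, the isoform of subunit 6A found in most tissues, read 10.58, 10.82, 10.81, 10.93 and 11.03 in control and 11.79, 11.66, 11.86, 11.70 and 11.32 in RCS. All RCS arrays were above all control arrays, and the rise was 1.78-fold (0.83 ± 0.19, limma adjusted p = 0.0016). COX7A2, the widespread isoform of subunit 7A, did not pass (0.10, 95% interval -0.14 to 0.34). Of the other subunits of complex IV, COX6C fell by 0.39, COX5B by 0.34 and COX7C by 0.22.

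**Figure D3:**
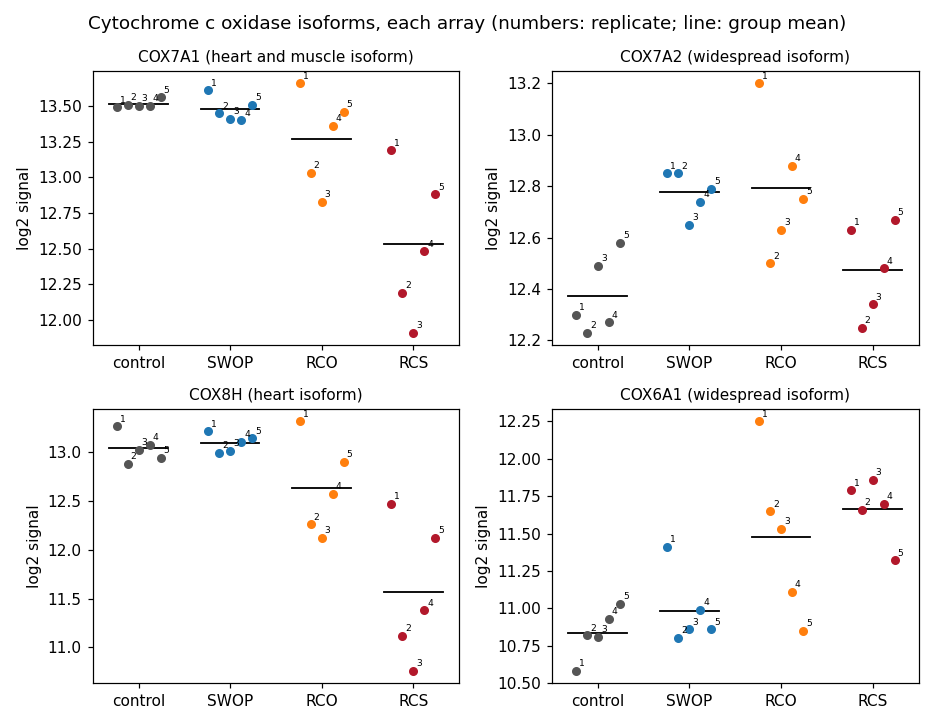
Log2 signal of 4 cytochrome c oxidase isoforms on each array (points, numbered by replicate; lines are group means; each panel has its own axis). COX7A1 and COX8H are lowest in RCS replicates 2, 3 and 4, COX6A1 is above every control array on all 5 RCS arrays, and COX7A2 is above every control array on all 5 SWOP arrays.

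Since COX7A1 and COX7A2 encode alternative forms of the same subunit, their log2 difference was taken on each array as a measure of relative change rather than of relative amount. It was 1.19, 1.28, 1.01, 1.23 and 0.98 in control, and 0.76, 0.60, 0.76, 0.66 and 0.72 in SWOP. It was 0.46, 0.53, 0.20, 0.48 and 0.71 in RCO, and 0.56, -0.06, -0.43, 0.00 and 0.21 in RCS. Every array of each ischemia group lay below every control array. The change from control was -0.44 in SWOP, -0.66 in RCO and -1.08 in RCS, each with p = 0.00794 in a two-sided exact permutation test, the smallest that 5 against 5 arrays allow, and 0.0476 after adjustment over the 24 tests of this kind. RCS was also below SWOP (-0.64, same exact p), whereas RCO overlapped SWOP (adjusted exact p = 0.114) and RCS overlapped RCO (0.19). Against control, COX7A2 differed by 0.40 in SWOP, 0.42 in RCO and 0.10 in RCS, and COX7A1 by -0.04, -0.24 and -0.98. COX7A2 did not pass between RCS and SWOP (-0.30, limma adjusted p = 0.0523) or between RCS and RCO (-0.32, 0.0555). Without RCO replicates 2 and 3, a check added after seeing the data, the RCO change was -0.59. The same measure for ATP5G1, ATP5G2 and ATP5G3, which encode an identical mature ring subunit of the ATP synthase, passed in none of its 18 tests (unadjusted exact p of 0.0556 or more).

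Of the 14 genes of complex V, 12 fell in RCS, with a median of -0.38 and differences from -0.65 to -0.17. ATP5J, coupling factor 6 of the stalk, read 11.45, 11.58, 11.31, 11.52 and 11.31 in control and 10.96, 10.67, 10.77, 10.85 and 11.04 in RCS. The groups did not overlap, and the fall was 1.49-fold (-0.58 ± 0.0813 SE, limma adjusted p = 2.3e-05). The catalytic beta subunit ATP5B fell by 0.38 and the alpha subunit ATP5A1 by 0.27. The ring subunit genes ATP5G1, ATP5G2 and ATP5G3 fell by 0.46, 0.38 and 0.28. ATP5H, a stalk subunit, fell by 0.53, and ATP5S, the coupling factor, by 0.65. ATP5I, a subunit at the dimer interface, fell by 0.40, the rotor subunit ATP5E by 0.37, and the stalk subunits ATP5F1 and ATP5O by 0.35 and 0.26. ATP5D (-0.31, limma adjusted p = 0.0599) and ATP5L (-0.17, 0.182) did not pass. Among the dimmer probe sets of ATP5L, the brighter did not pass (-0.37, limma adjusted p = 0.167) and the dimmest fell by 0.60 (0.0196).

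In all, 12 genes had more than 1 probe set. Of their 15 other probe sets, 7 fell in RCS, 1 rose (SDHB) and 7 did not pass, and 12 had the sign of the probe set used. SDHB differed most, at -0.66 for the probe set used and 0.47 for the other. Among genes whose probe sets shared a sign NDUFS3 differed most, with -0.49 for the probe set used and -1.46 and -0.61 for the others.

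Markers of other cells and RNA measures moved with the RCS group, in which 28.2% of all probe sets fell and 19.3% rose. Of 11 cardiomyocyte markers, 9 fell and 2, MYH7 (-0.04) and MYL2 (-0.11), did not pass, with a median of -0.36 and array medians of -0.73 to -0.23 against -0.02 to 0.02 in control. Of 6 macrophage and monocyte markers 4 rose, among them AIF1 by 2.12 and TYROBP by 2.01, and the array medians were 1.12 to 1.81 against -0.30 to 0.41 in control. C1QA and CD14 did not pass. The lowest RCS mean was 6.86, for CD14, near the median of all probe sets, and whether a marker was absent was not assessed. Of 5 fibroblast markers 3 rose (array medians 0.75 to 1.98 against -0.78 to 0.39), as did all 3 smooth muscle markers (0.93 to 2.02 against -0.28 to 0.48), while none of 6 endothelial, 3 lymphocyte and 2 erythroid markers passed. Of 4 skeletal muscle markers 3 fell (array medians -0.38 to -0.28 against -0.10 to 0.12), and of 4 adipocyte markers 2 fell (-0.97 to -0.60 against -0.42 to 0.46). The 3′ minus 5′ log2 signal of the actin control probes averaged 0.60 in RCS and 1.36 in control (two-sided exact permutation p = 0.00794), and spike-in signals were also lower (10.3 against 10.6, same p). The interquartile range of the array's log2 signals was wider (3.36 against 3.09, same p). The part of these differences in the lower subunit signals was not tested, and in whole tissue fewer cardiomyocytes and less RNA per cardiomyocyte cannot be told apart.

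**Figure D4:**
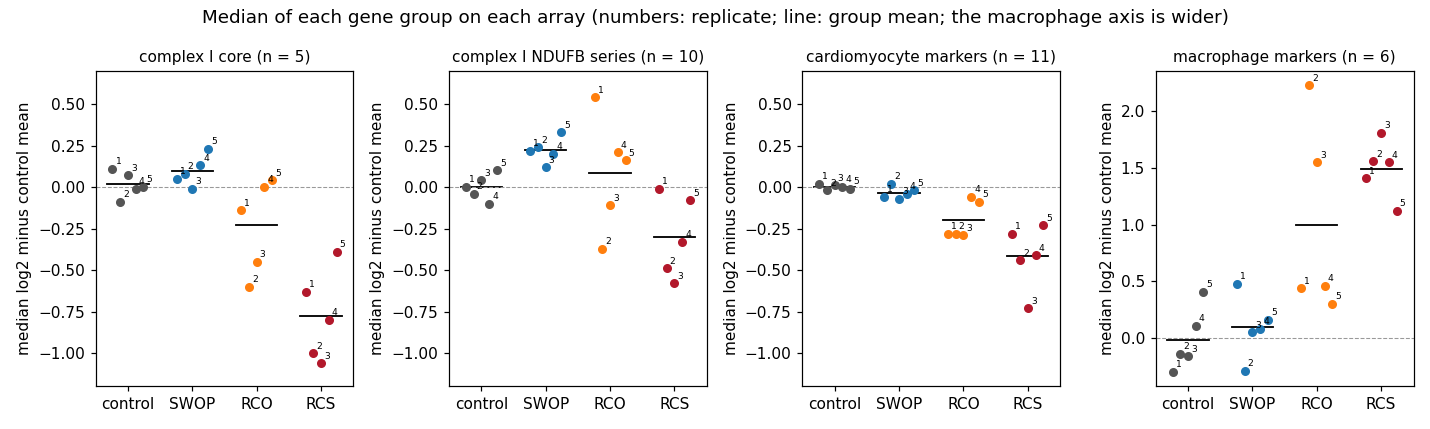
Array medians, relative to control on the log2 scale, of the complex I core, the NDUFB series, cardiomyocyte markers and macrophage markers (points are arrays numbered by replicate, lines are group means; the macrophage panel has a wider axis). In RCS the core lies at -1.06 to -0.39, the NDUFB series at -0.58 to -0.01, cardiomyocyte markers at -0.73 to -0.23 and macrophage markers at 1.12 to 1.81.

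After a single SWOP session 54 of the 59 genes had a mean above control, by at most 0.47. By limma only COX7A2 passed, against 3.01% of all probe sets higher and 4.14% lower, or 6.2% and 1.71% of the 8001 brightest. It read 12.85, 12.85, 12.65, 12.74 and 12.79 in SWOP against 12.30, 12.23, 12.49, 12.27 and 12.58 in control, and rose 1.32-fold (0.40 ± 0.114 SE, adjusted p = 0.0392). All SWOP arrays were above all control arrays. The call was lost on leaving out control replicate 1, 2 or 4 or any single SWOP array, and under quantile normalization.

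The median SWOP difference over the 59 genes was 0.14, against 0.04 over all genes, and 0.06 after quantile normalization. The interquartile range of log2 signals was wider on SWOP than on control arrays (3.28 against 3.09, two-sided exact permutation p = 0.00794), and the array median was lower (6.78 against 6.80, p = 0.0238). The part of this wider scale in the SWOP differences of these bright genes was not tested beyond quantile normalization. By complex it was 0.20 for I, 0.01 for II, 0.20 for III, 0.06 for IV and 0.04 for V. For 17 genes every SWOP array was above every control array and for none below, against 5.67% and 6.35% of all probe sets. Of these, 12 belong to complex I. NDUFC1, a small membrane-arm subunit, read 11.79, 11.82, 11.60, 11.62 and 11.62 in SWOP against 11.19, 11.30, 11.35, 11.15 and 11.11 in control (0.47 ± 0.177, limma adjusted p = 0.1). NDUFB5 differed by 0.34, NDUFC2 and NDUFA12 by 0.28, NDUFB9 by 0.27 and UQCR10 by 0.26, and none passed with the spread pooled over 4 groups. With a spread taken from SWOP and control alone, 18 genes passed, all higher, including NDUFC1 (adjusted p = 0.00646), NDUFB5, UQCR10 and ATP5D, against 8.46% of all probe sets higher and 8.59% lower in the same fit. With the pooled spread but without RCO replicates 2 and 3, 6 passed, all higher, against 5.02% higher and 6.43% lower. The complex I core had a median of 0.07 and SDHA was at 0.01, and for neither did the arrays separate.

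After 6 RCO sessions the 59 subunit genes had no shared direction, with 21 means above control and 38 below. By complex the median was 0.00 for I, -0.22 for II, 0.00 for III, -0.05 for IV and -0.11 for V. All 4 genes of complex II, 12 of 14 of complex V and all 5 of the complex I core were below control, against 2 of 10 in the NDUFB series. On replicates 1, 4 and 5 the array medians were -0.07, -0.08 and -0.02 for complex II and 0.05, 0.03 and 0.03 for complex V. By limma 3 rose and 2 fell, against 5.9% and 4.81% of all probe sets and 11.5% and 6.57% of the 8001 brightest, and the median over the 59 genes was -0.08 (0.01 over all genes). Without replicates 2 and 3, the lowest arrays for these genes, it was 0.10 and 7 genes passed, all higher, against 2.65% of all probe sets higher and 2.08% lower. It was 0.00 without replicate 2 alone. COX6A1 read 12.25, 11.65, 11.53, 11.11 and 10.85 in RCO replicates 1 to 5, so replicates 1 to 4 were above the highest control array (11.03) and replicate 5 was within the control range. It rose by 0.64 (SE 0.19, adjusted p = 0.0355), and did not pass without replicates 2 and 3. COX7A2 read 13.20, 12.50, 12.63, 12.88 and 12.75, with replicate 2 inside the control range, and rose by 0.42 (adjusted p = 0.0242), or by 0.57 without replicates 2 and 3. NDUFA2, an accessory subunit of complex I, rose by 0.45 (adjusted p = 0.0443), or by 0.65 without those arrays. The split of 3 and 2 depended on the scaling. After quantile normalization COX6A1 (0.56, limma adjusted p = 0.0598) and NDUFA2 (0.34, 0.1) did not pass. In the same fit SDHA (-0.53, 0.0226) and SDHB (-0.37, 0.0334) passed as lower.

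NDUFV1 fell by 0.47 in RCO (SE 0.144, limma adjusted p = 0.0434). Its arrays read 11.27, 11.32, 11.25, 11.90 and 11.92, so 3 lay far below the control range of 11.91 to 12.06 and 2 at its lower edge. ATP5J read 11.20, 11.25 and 11.22 in RCO replicates 1, 4 and 5 and was lower still in 2 and 3, all below the lowest control array (11.31), and it fell by 0.30 (adjusted p = 0.0232). Neither NDUFV1 nor ATP5J passed without replicates 2 and 3. NDUFS7 (-0.38) and SDHB (-0.29) were also below control on every RCO array without passing, which made 3 such genes against 2.95% of all probe sets. Without replicates 2 and 3 the differences of NDUFS7 and SDHB were -0.16 and -0.12. The dimmer second probe set of SDHB went the other way, with a rise of 0.41 in RCO (limma adjusted p = 0.0152) and 0.35 in SWOP (0.0475). No gene was above control on every RCO array, against 2.88%. SDHA (-0.46) had a limma adjusted p of 0.0522, and was at -0.33 (0.278) without those arrays. Without replicates 2 and 3 the genes that passed were COX7A2, NDUFA2, NDUFA7, NDUFB5, NDUFC1, NDUFC2 and UQCR10. The count of 5 became 0 without control replicate 2 or 4, 1 without control replicate 1 or RCO replicate 3, 2 without control replicate 3, 3 without RCO replicate 2, and 8 without RCO replicate 5. Shares of all probe sets were not counted in these fits.

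Between the ischemia groups, RCS against SWOP gave the widest separation. By limma 55 genes were lower in RCS, 1 (COX6A1) was higher and 3 did not pass, against 15.3% lower and 13.8% higher over all probe sets (24.2% and 20% of the 8001 brightest), and the median was -0.58 (-0.02 over all genes). The arrays did not overlap for 49 genes, all lower in RCS, against 11.9% of all probe sets lower and 12% higher. NDUFB9, NDUFC1 and COX7A2 were the 3 that did not pass. COX8H differed by -1.52, NDUFS7 by -1.05, NDUFV1 by -1.01 and ATP5D by -0.62. The RCS arrays are the same ones that were set against control, so the comparisons are not independent.

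RCS against RCO gave 31 lower genes, none higher and 28 that did not pass, against 10.3% lower and 8.75% higher over all probe sets (6.89% and 13.6% of the 8001 brightest), with a median of -0.36 (-0.01 over all genes). COX8H (-1.06 ± 0.252 SE, limma adjusted p = 0.00917), COX7A1 (-0.74), NDUFS7 (-0.66) and SDHC (-0.57) were among them, as were all 5 core genes of complex I. For no gene did the arrays of the groups separate, against 4.25% of all probe sets lower and 2.84% higher. Without RCO replicates 2 and 3 the count was 54, all lower, against 21% of all probe sets lower and 16.7% higher, the median was -0.55, and COX8H differed by -1.36, COX7A1 by -0.96, NDUFS7 by -0.87 and SDHC by -0.73. The count was 53 without RCO replicate 2 alone. With the spread of these groups alone it was 0 by limma, against 2.04% of all probe sets lower and 1.84% higher. In that fit 34 genes had an unadjusted p below 0.05, a level not counted over all probe sets. With the pooled spread the count was 11 without RCO replicate 1, 4 or 5 or RCS replicate 2, 6 without RCS replicate 3 and 16 without RCS replicate 4. Shares of all probe sets were not counted in the fits that left out 1 array. Those counts therefore do not show whether the subunit genes moved more than the whole array.

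RCO against SWOP gave 3 lower genes and none higher, against 6.31% and 3.75% of all probe sets (11.3% and 3.99% of the 8001 brightest), with a median of -0.19 (0.02 over all genes). The arrays did not overlap for 6 genes, all lower in RCO, against 4.05% of all probe sets lower and 2.49% higher. ATP5J was lower by 0.34 (adjusted p = 0.0152), NDUFA10 by 0.46 (0.0278) and NDUFV3, a small flavoprotein-arm subunit, by 0.45 (0.046), all by limma. None passed by limma without RCO replicates 2 and 3, against 3.73% of all probe sets lower and 3.03% higher, and the median was then -0.01. In that fit 3 genes had an unadjusted p below 0.05, a level not counted over all probe sets. The count of genes that passed was 1 without RCO replicate 2 or 3 or SWOP replicate 2, 4 or 5, and 6, 8 and 10 without RCO replicate 1, 4 and 5. Shares of all probe sets were not counted in the fits that left out 1 array.

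Genes that serve the complexes without being subunits were taken from lists. For scale, 28.2% of all probe sets fell and 19.3% rose in RCS against control. Of 49 assembly factors 16 were measured, and in RCS 13 fell and none rose (median -0.43). Among those that fell were the complex I factors NDUFAF1 (-0.65) and FOXRED1 (-0.65) and the ATP synthase factor ATPAF1 (-0.56). None of the 16 passed by limma in SWOP or RCO. At the adjusted p the shares of all probe sets were 3.01% higher and 4.14% lower in SWOP, and 5.9% and 4.81% in RCO. At an unadjusted p below 0.05 there were 1 and 4 of the 16 in SWOP and RCO, against 6340 and 6547 of all 23999 probe sets. A check of the lists without RCO replicates 2 and 3 was added after seeing the data. There, of the 16, only the complex I factor NDUFAF3 passed in RCO (0.57, limma adjusted p = 0.00836). In that fit 2.65% of all probe sets were higher and 2.08% lower. Of 18 genes for mobile carriers, exchange across the inner membrane and ATPase inhibition, 17 were measured, and 10 fell and 3 rose in RCS (median -0.32). The electron-transfer flavoproteins ETFA and ETFB, which deliver electrons from fatty acid oxidation, fell by 0.55 and 0.58, and the muscle mitochondrial creatine kinase CKMT2 by 0.70. The ADP/ATP translocases moved apart: the heart and muscle form SLC25A4 fell by 0.39, while SLC25A5 rose by 1.28 and SLC25A6 by 0.28. The uncoupling protein gene UCP2 rose by 0.71. SLC25A5 also rose in RCO (0.55, limma adjusted p = 0.0156), but not without replicates 2 and 3 (0.30, 0.153), and did not pass in SWOP (0.11). Cytochrome c, CYCS, did not pass in RCS (-0.28).

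Of 18 regulators of mitochondrial genes 8 were measured. In RCS 2 rose and 2 fell, which is 50% of the 8 and near the 47.5% of all probe sets that passed. In RCS the coactivator PPRC1 rose by 0.75 and YY1 by 0.22, MEF2A fell by 0.55 and CREB1 by 0.42, and the coactivator PPARGC1A (-0.21, limma adjusted p = 0.548) and the mitochondrial transcription factor TFAM (-0.22, 0.111) did not pass. CREB1 alone of the 8 also fell in SWOP, by 0.47, where 4.14% of all probe sets fell. Of 26 symbols listed for the subunits encoded by mitochondrial DNA, 0 matched a probe set with a single symbol, so these subunits were not analysed here.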

How the data were processed

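RNA from the hearts of 20 pigs was labelled with biotin and hybridised to single-colour arrays, per the labels. The authors deposited log2 signals for 24123 probe sets; the submitters' processing notes name RMA and MAS5 without saying which step each made, and the log base was read from the range of the values (3.22 to 15.18). The values were used as deposited. Leaving out 124 control spots, 23999 probe sets were fitted in limma 3.58.1 (R 4.3.3) with a mean for each of 4 groups (16 residual degrees of freedom), 6 comparisons and Benjamini-Hochberg adjustment over all probe sets, with a threshold of 0.05. The script was tested on simulated data. Fold sizes are powers of the log2 difference, a level is not compared between probe sets, and the number of arrays limits the precision (median SE of a difference 0.111).

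Genes were named from the platform's annotation, which pairs 10069 probe sets with a single symbol. The members and lists were chosen with earlier results of these data known. Members were named by rule: those that passed in any comparison, the highest and lowest of each complex in RCS minus control, and, whatever their values, isoform pairs and catalytic or core subunits. NDUFB9 falls outside the rule and was named after its values were seen. Isoform differences were tested by exact permutation over arrays. Replicate numbers were not taken to pair the arrays: 10 of 30 same-numbered pairs correlated above 0.1, and in no comparison did all 5 (RCS and RCO came nearest, at 0.08 to 0.44). Alternatives covered scaling, weights, the spread, the probe set, the adjustment and left-out arrays. Figures used matplotlib 3.10.9.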

Additional observations from a re-analysis of the deposited data

Results flagged for a closer look

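In 260 sets of 5 arrays checked, 4 held an array far from the others by Dixon's criterion, where chance alone gives about 5% of sets. ATP5A1 was 14.05 in RCS replicate 5 against 13.84 to 13.89 in the other RCS arrays, and so was nearest to control there. COX7A1 was 13.56 in control replicate 5 against 13.49 to 13.51, a small step in the gene with the smallest control SD (0.0277). NDUFA7 was 11.11 in SWOP replicate 3 against 11.35 to 11.42, and this array overlapped the control range. NDUFB10 was 12.19 in control replicate 4 against 12.28 to 12.31.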

How the results depend on the processing

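The lower subunit signals in RCS against control kept their direction under every alternative run: the median difference over the 59 genes lay between -0.47 and -0.33, and the count of 45 genes was 36 to 46 on leaving out 1 array. It was 13 where at least 1.5-fold was asked for and 26 with the Benjamini-Yekutieli adjustment, which are stricter by construction. Of the 45, 36 were kept without any single array and 12 under every setting. RCS against SWOP gave 29 of 56 genes at 1.5-fold. For the counts in this section, shares of all probe sets were counted only in the settings where the results above print them. The other counts show how the calls moved, and not whether the subunit genes moved more than the whole array.

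The counts of the other comparisons moved with the spread used and with single arrays of several groups, controls included, and the cause was not tested. SWOP against control (1 gene) gave 18 with only these groups, 10 with array weights, 6 without RCO replicates 2 and 3 (a check added after seeing the data), 0 with quantile normalization (median 0.06), at 1.5-fold and with Benjamini-Yekutieli, and 0 to 1 without 1 array. RCO against control (5) gave 3 with array weights, 0 with only these groups, 1 at 1.5-fold, 0 with Benjamini-Yekutieli and 0 to 8 without 1 array, and its median turned from -0.08 to 0.10 without replicates 2 and 3, with -0.14 to 0.00 over single arrays left out. Quantile normalization kept 3 of these 5 calls and lost 2. RCO against SWOP (3) gave 5 with centred arrays, 6 without dim probe sets, 1 with only these groups, 0 at 1.5-fold, with Benjamini-Yekutieli and without RCO replicates 2 and 3, 6 without the arrays of highest spike-in signal, and 1 to 10 without 1 array. RCS against RCO (31) gave 47 with array weights, 0 with only these groups, 4 at 1.5-fold, 0 with Benjamini-Yekutieli, 54 without RCO replicates 2 and 3, 9 without the arrays of highest spike-in signal, and 6 to 53 without 1 array.

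With the replicate number as a block, RCO against SWOP gave 9 genes. The block moved none of the other counts by over 1.5 times, and 11 of 20 arrays correlated best with their own number. All 59 genes lay above the dimmest 30% of probe sets, the dimmest at percentile 65.9, and signal over background was not used here.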
